A study of Mus musculus with 6 samples.

Results

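Glucocorticoids are steroid hormones that enter cells and bind the glucocorticoid receptor, a transcription factor held in the cytoplasm by heat shock chaperones until hormone arrives. The bound receptor moves to the nucleus, where it raises genes such as Fkbp5, Tsc22d3 and Per1 and restrains many inflammatory genes. In fat the hormone promotes the conversion of stromal progenitors into adipocytes, and stromal cells can make active hormone from an inert precursor with the enzyme encoded by Hsd11b1. The set described here holds the receptor gene Nr3c1, Hsd11b1 and 8 genes that glucocorticoids are known to raise: Fkbp5, Tsc22d3, Per1, Zbtb16, Klf9, Sgk1, Mt1 and Mt2. They were taken by symbol from the gene count table. All 10 were present among its 56748 genes, and all 10 passed the filter on low counts that left 17717 genes for testing.

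Wild-type stromal vascular cells from the gonadal white fat of C57BL/6 mice of both sexes, 12 weeks old, were placed straight onto 12 kPa hydrogels and kept for 48 h in DMEM with 10% serum. The gel coating was type I collagen at 0.05 mg/mL, polymerized alone (col1, 0 nM ACLP, 3 libraries) or together with 30 nM recombinant aortic carboxypeptidase-like protein, ACLP (col1-ACLP, labelled M-ACLP, 3 libraries). ACLP is secreted and binds collagen, and here the mouse protein came from a transfected human cell line. No steroid hormone is named among the additions to the medium, so the comparison asks how collagen-bound ACLP bears on these genes at the hormone level of that medium. The fraction is a mixture of cell types, and in bulk RNA fewer cells of a type and less RNA per cell cannot be told apart.

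Library totals ranged from 33343651 to 47142754 counts, and 3 counts corresponded to 0.0624 to 0.0889 CPM, the count scaled to a common library size. Values below are CPM adjusted by edgeR's TMM factors, and fold changes are log2, col1-ACLP relative to col1, with SE or 95% interval. A gene is called raised or lowered where its adjusted p is under 0.05, together with an absolute log2 fold change above 0.58. Summed progenitor markers ranged from 10340 to 14600 CPM, against 1426 to 2172 for adipocyte, 717.1 to 906.8 for endothelial, 636.6 to 756.9 for macrophage, 335.7 to 454.9 for mural, 236 to 328 for mesothelial, 28.7 to 44.2 for mast cell and 0.5702 to 2.131 for lymphocyte markers. The B cell gene Ms4a1 was at 0 counts in all 6 libraries. Among these markers the progenitor surface genes Ly6a and Cd34 and the progenitor gene Pi16 were lowered on col1-ACLP (-0.68, -0.65 and -1.16), as were the mast cell protease genes Tpsb2, Cma1 and Mcpt4 (-1.56, -1.88 and -3.18) and the mesothelial gene Upk3b (-0.93), while the collagen gene Col1a1 was raised (0.79). The number of mast cell genes called fell from 3 to 0 without col1 replicate 1 and to 1 without col1-ACLP replicate 3. It was 2 without col1-ACLP replicate 1 and with DESeq2, limma-voom or replicate number as a block. Upk3b lost its call whichever of the 6 libraries was left out (adjusted p 0.05823 to 0.1225 in edgeR). Cd34 fell short of the fold threshold without col1-ACLP replicate 1.

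None of the 10 glucocorticoid genes was raised or lowered on col1-ACLP. The count was 0 of 10 with edgeR, with DESeq2 and with limma-voom, while 1.38% of all tested genes were called with edgeR. Only Sgk1 had an unadjusted p under 0.05 in edgeR, and its adjusted p was 0.3163. The number of such genes was 2 with DESeq2 or limma-voom and 0 with replicate number as a block. It was 0 or 1 when single libraries were left out. Over all tested genes 2633 of 17717 had such a p in edgeR, the background for the same count in the other lists below. The fold changes ran from -0.27 for Mt2 to 0.23 for Sgk1, with a median of -0.11 against 0.01 over all tested genes. The 95% intervals of 8 of the 10 lay wholly between -0.58 and 0.58, so a change of that size in either direction fell outside the interval. Over all tested genes 46.2% had such an interval. The exceptions were Mt2 and Zbtb16, with 2069 and 799 counts over the 6 libraries.

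**Figure D1:**
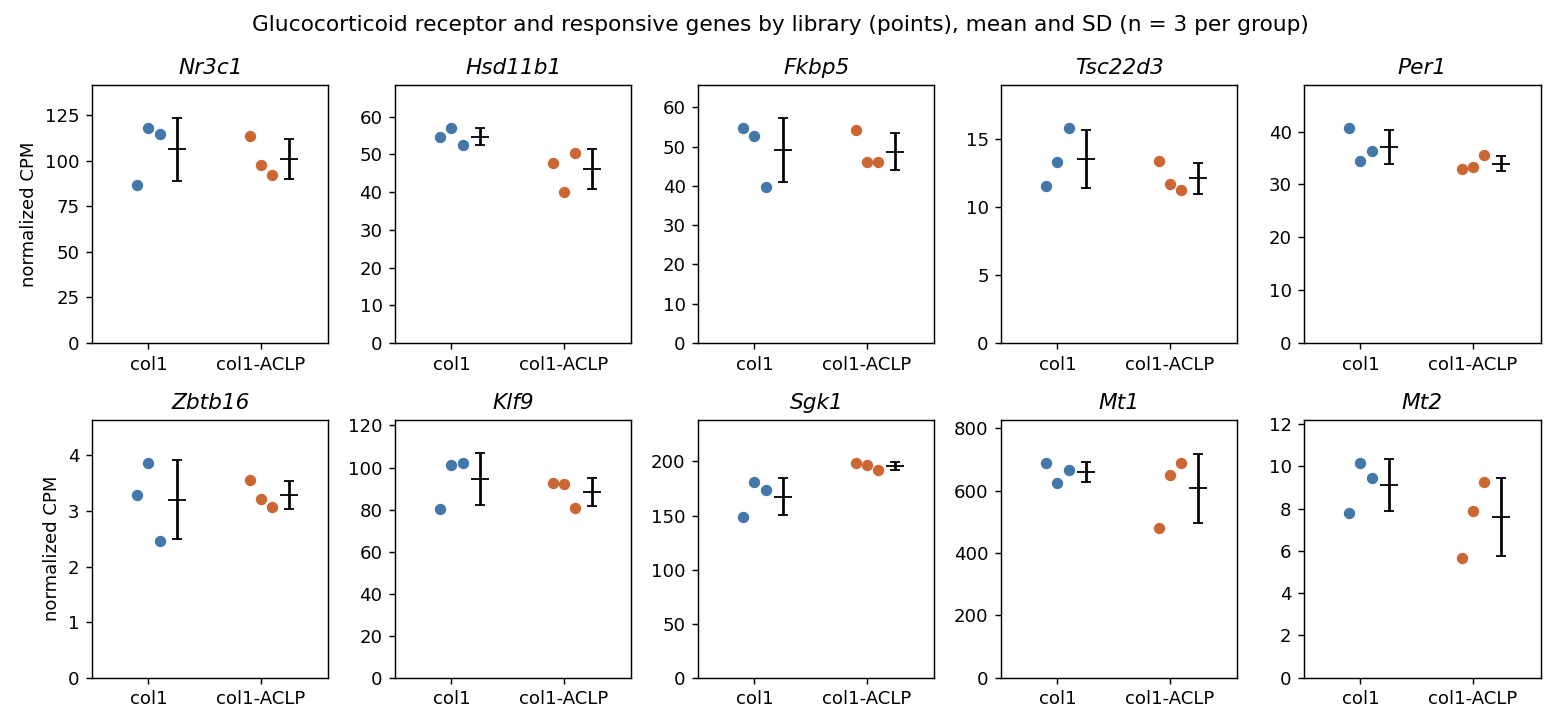
Normalized CPM (y axis, from 0) of each of the 10 genes in the 3 col1 and 3 col1-ACLP libraries (points), with the mean and SD of each group in black. The groups overlap in 8 genes and stand apart in Hsd11b1, lower on col1-ACLP, and in Sgk1, higher on col1-ACLP.

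The groups did not overlap in 2 of the 10 genes, Hsd11b1 and Sgk1, where 20.4% of all tested genes had groups that did not overlap. The count for the set is therefore close to the background of the whole table. Both genes failed adjustment, and their values are given below.

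The receptor gene Nr3c1 was at 86.53, 118.1 and 114.5 CPM on col1 and at 113.6, 97.7 and 92.23 CPM on col1-ACLP. The lowest library of all was col1 1, and the remaining col1 libraries were the highest, so the groups overlapped fully. On the log2 scale the difference was -0.07, with an interval of -0.34 to 0.20 (edgeR adjusted p = 0.8622). Per gene length Nr3c1 stood at 13.5 CPM per kilobase over the 6 libraries, above 78.9% of tested genes. Nr3c2, which encodes the mineralocorticoid receptor that also binds glucocorticoids, was at 0.9232 to 2.537 CPM (fold change 0.02 ± 0.43 SE).

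The receptor needs Hsp90, Hsp70 and their cochaperones to bind hormone. Of 16 tested genes for these chaperones 0 were raised or lowered with edgeR, DESeq2 or limma-voom, 1 had an unadjusted p under 0.05, and the median fold change was -0.02. The Hsp90 genes Hsp90aa1 and Hsp90ab1 stood at 0.18 ± 0.10 and -0.03 ± 0.09. Fkbp4, which encodes the cochaperone that competes with the product of Fkbp5 for the receptor complex, was at 142.9 to 162.5 CPM on col1 and at 146 to 172.7 CPM on col1-ACLP. The inducible Hsp70 genes Hspa1a and Hspa1b came first and next by p (-0.40 ± 0.17 and -0.21 ± 0.11, adjusted p = 0.2759 and 0.3806 in edgeR), and since they are nearly identical copies their separate values are uncertain.

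Of 14 coregulators, the proteins that the receptor recruits to DNA, 0 were raised or lowered with the same tools. The fold changes ran from -1.35 to 0.44, with 12 above 0 and 2 under 0. The list's median was 0.16, and 4 had an unadjusted p under 0.05. The groups did not overlap in 6, 5 higher and 1 lower on col1-ACLP, where 20.4% of all tested genes had such groups. The corepressor gene Ncor1 stood at 0.32 ± 0.11 (adjusted p = 0.1839 in edgeR). Ncor1 overlaps Ttc19, which has 33% as many counts.

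Hsd11b1 encodes the hydroxysteroid dehydrogenase that regenerates active glucocorticoid inside cells. It was at 54.75, 57.05 and 52.47 CPM on col1 and at 47.78, 40.16 and 50.5 CPM on col1-ACLP. Every col1-ACLP library lay below every col1 library, the gap being smallest between col1 3 and col1-ACLP 3. The fold change was -0.25 with an interval of -0.50 to 0.003 and did not pass adjustment (edgeR adjusted p = 0.3453). It was -0.32 without col1-ACLP replicate 3 and -0.16 without col1-ACLP replicate 2.

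The 9 adipocyte markers summed to 1536, 1673 and 2172 CPM on col1 and to 1426, 1565 and 1475 CPM on col1-ACLP, and these sums overlapped. Of the 9, 0 were called in edgeR, DESeq2 or limma-voom and 6 had an unadjusted p under 0.05, with fold changes from -0.64 to 0.73. All 9 progenitor markers summed to 11650, 10370 and 10340 CPM on col1 and to 14600, 10650 and 12900 CPM on col1-ACLP. Without Col1a1, which was raised, the other 8 summed to 5610, 5728 and 5954 CPM on col1 and to 4127, 3875 and 4077 CPM on col1-ACLP. Their part in the values of Hsd11b1 was not tested.

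H6pd encodes the enzyme that supplies Hsd11b1's product with its cofactor, and it was at 478.8 to 529 CPM on col1 and at 477.5 to 595.9 CPM on col1-ACLP (0.10 ± 0.10). Hsd11b2, which encodes the enzyme that inactivates glucocorticoid, reached at most 0.6796 CPM in any library and was at 0 in 3 of the 6. Of 10 tested genes for steroid receptors, metabolism and transport 0 were raised or lowered in edgeR, with 4 at an unadjusted p under 0.05 and a median of 0.06. The largest fold change in the list was that of Abcb1a, which encodes a drug and steroid efflux pump. It was at 8.863, 5.701 and 5.785 CPM on col1 and at 11.58, 11.42 and 12.19 CPM on col1-ACLP, so the groups stood apart. Its fold change of 0.79 ± 0.20 missed the threshold in edgeR (adjusted p = 0.05132) and passed it in DESeq2 (adjusted p = 0.01068) and in limma-voom (adjusted p = 0.03206). The polyprenol and steroid reductase gene Srd5a3 stood at -0.31 ± 0.11 (adjusted p = 0.1961). The genes of the plasma carrier, Serpina6, and of an adrenal hydroxylase, Cyp11b1, were too little counted to be tested.

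Fkbp5 encodes an immunophilin cochaperone that lowers the receptor's affinity for hormone and closes a short negative feedback loop. It was at 54.75, 52.74 and 39.66 CPM on col1 and at 54.14, 46.08 and 46.02 CPM on col1-ACLP. The group means were 49.1 ± 8.20 and 48.8 ± 4.67 CPM (SD, n = 3), and the lowest library was col1 3. The fold change was -0.01 with an interval of -0.29 to 0.28, the value nearest 0 in the set.

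Tsc22d3 encodes GILZ, a leucine zipper protein that carries part of the anti-inflammatory action of glucocorticoids. It was at 11.56, 13.29 and 15.83 CPM on col1 and at 13.36, 11.73 and 11.24 CPM on col1-ACLP. The 3 col1 libraries spanned all but the lowest of the col1-ACLP values. On the log2 scale the difference was -0.16, with an interval of -0.52 to 0.19. Among its relatives Tsc22d2 stood at 0.50 ± 0.13 (edgeR adjusted p = 0.0587), at 34.12, 44.57 and 40.71 CPM on col1 and at 63.29, 51.81 and 53.38 CPM on col1-ACLP. Its adjusted p was under 0.05 in DESeq2 (0.009944) and limma-voom (0.04671), with fold changes of 0.49 that lay under the fold threshold. In edgeR it was above 0.05 whichever library was left out (0.05866 to 0.2276) and with replicate number as a block (0.1449).

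Per1 is a circadian repressor whose gene also responds directly to the hormone. It was at 40.7, 34.37 and 36.4 CPM on col1 and at 32.91, 33.35 and 35.6 CPM on col1-ACLP, with overlap between the groups. On the log2 scale the difference was -0.13, with an interval of -0.39 to 0.13. Of 17 other clock genes 0 were raised or lowered with edgeR, DESeq2 or limma-voom, 5 had an unadjusted p under 0.05, and the median was 0.22. Per2, the closest relative of Per1, stood at 0.42 ± 0.19 and Per3 at -0.39 ± 0.16 (adjusted p = 0.3163 and 0.2383 in edgeR). Per3 overlaps Camta1 on the same strand, whose count is 60.5% of its own, and its value is uncertain. The clock repressor gene Bhlhe41 had the smallest p of the list (0.31 ± 0.11, adjusted p = 0.1886).

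Zbtb16 encodes PLZF, a zinc finger repressor that rises sharply in many cell types given glucocorticoid. It was the least expressed of the 10, at 3.29, 3.87 and 2.459 CPM on col1 and at 3.559, 3.217 and 3.068 CPM on col1-ACLP. All col1-ACLP libraries lay inside the range of col1. The fold change of 0.03 had the widest interval of the set, -0.57 to 0.63, from 105 to 186 counts per library.

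Klf9 encodes a Kruppel-like factor that the receptor induces in many tissues. It was at 80.33, 101.4 and 102.3 CPM on col1 and at 92.44, 92.02 and 80.67 CPM on col1-ACLP, with col1 1 lowest. On the log2 scale the difference was -0.10, with an interval of -0.35 to 0.15. Of 16 tested close relatives of the 10 genes, Klf2 was the 1 gene lowered and 0 were raised, with a list median of -0.13. Klf2, a factor known for keeping endothelial and immune cells quiescent, fell from 60.98, 58.9 and 62.42 CPM to 31.63, 43.04 and 43.12 CPM (-0.63 ± 0.13, edgeR adjusted p = 0.0159). That call was lost without col1 replicate 3 (-0.62, adjusted p = 0.07021) and without col1-ACLP replicate 1 (-0.50, adjusted p = 0.06058).

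**Figure D2:**
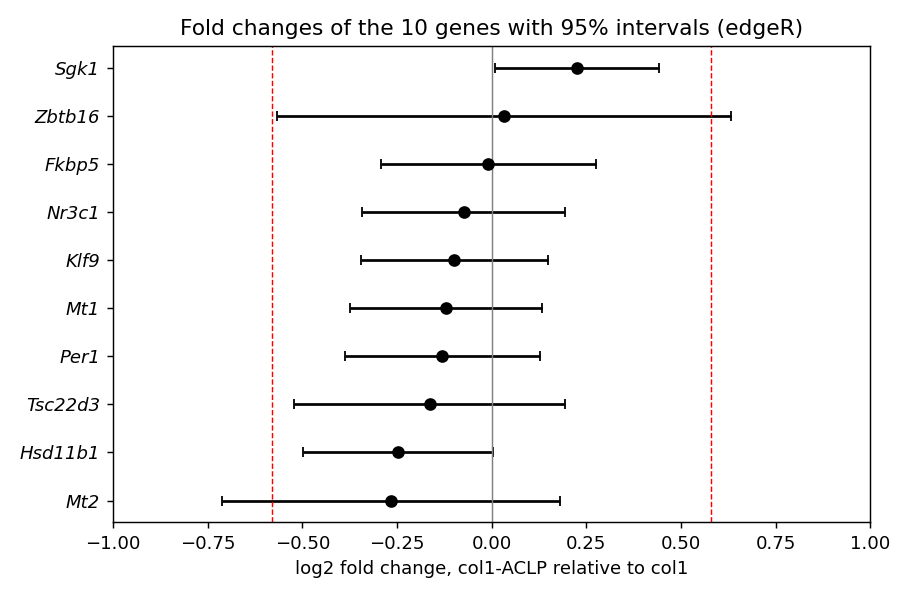
Log2 fold change (x axis, col1-ACLP relative to col1) of each of the 10 genes with its 95% interval from edgeR, and red dashed lines at -0.58 and 0.58. The interval of Sgk1, from 0.01 to 0.44, lies just above 0, that of Hsd11b1 ends at 0.003, and those of Mt2 and Zbtb16 reach past a dashed line.

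Sgk1 encodes a kinase that serum and glucocorticoids induce and that controls ion channels and cell survival. It was at 148.2, 180.8 and 173.8 CPM on col1 and at 198.9, 197 and 191.9 CPM on col1-ACLP. Every col1-ACLP library lay above every col1 library, and the col1-ACLP libraries were close together (SD 3.64 CPM against 17.2 CPM on col1, n = 3 each). The fold change was 0.23 with an interval of 0.01 to 0.44 (edgeR adjusted p = 0.3163, and 0.2082 in DESeq2, the smallest adjusted p of any of the 10 genes in any fit). Without col1 replicate 1, the lowest library, it was 0.14.

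RefSeq promoter windows, from 250 bases before to 50 bases after an annotated start (build GRCm38.p6), were found for 8 of the 10 genes, all but Nr3c1 and Zbtb16, with 16 windows in all. They were searched on both strands for the full receptor palindrome, AGAACA and TGTTCT separated by any 3 bases. It occurred in 1 of the 16, a window of Sgk1, and in 3 of 32851 windows of the whole table (0.00913%). A single arm of the palindrome, AGAACA or TGTTCT, occurred in 4 of the 16 windows, including that one, and in 19% of all windows. Only exact matches inside these windows were searched, so a window without one says nothing about inexact or more distant sites. The Sgk1 window is shown because it holds the only full match in the set. It lies at chr10:21993640-21993919, plus strand, and is printed to 30 bases after the start with the palindrome in capitals, its first base 189 bases before the start. Sgk1 has 6 windows in the table, and the counts are per gene and do not separate the starts.
Sgk1: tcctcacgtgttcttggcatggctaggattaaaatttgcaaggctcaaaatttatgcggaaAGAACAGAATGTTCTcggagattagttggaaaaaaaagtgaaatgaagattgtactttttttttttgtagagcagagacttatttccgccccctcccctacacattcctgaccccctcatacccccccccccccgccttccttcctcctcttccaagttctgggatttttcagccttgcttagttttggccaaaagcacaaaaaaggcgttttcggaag

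A match is a string of letters and not a shown binding site. Of 9 tested genes listed as kinases and substrates around SGK1, 0 were raised or lowered with edgeR, DESeq2 or limma-voom, 3 had an unadjusted p under 0.05, and the median was 0.23. Gsk3b, a kinase that SGK1 can phosphorylate, stood at 0.41 ± 0.13 (edgeR adjusted p = 0.1261) and Nedd4l, a ubiquitin ligase that SGK1 inhibits, at -0.28 ± 0.11 (adjusted p = 0.2323). The list also holds Pdk1 (0.34 ± 0.11, adjusted p = 0.1165), which in mouse encodes a pyruvate dehydrogenase kinase and not the SGK1-activating kinase, whose gene is Pdpk1 (0.23 ± 0.13).

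Mt1 and Mt2 are neighbors on chromosome 8 and encode metallothioneins, small proteins rich in cysteine that bind zinc and copper and are raised by metals and by glucocorticoids. Mt1 was at 686.8, 623.8 and 666.9 CPM on col1 and at 479.6, 651 and 689.2 CPM on col1-ACLP. The col1-ACLP group held both the lowest and the highest of the 6 values. The fold change was -0.12 with an interval of -0.37 to 0.13, and without col1-ACLP replicate 1 it was 0.02. Mt2 was at 7.767, 10.17 and 9.439 CPM on col1 and at 5.64, 7.906 and 9.259 CPM on col1-ACLP. Its groups overlapped, and its lowest library was again col1-ACLP 1. The fold change was -0.27 with an interval of -0.71 to 0.18, and -0.09 without col1-ACLP replicate 1.

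Both genes share metal response elements near their starts, read here as TGCACNC or TGCGCNC on either strand. The Mt1 window held 3 matches and the Mt2 window 4. Among the other 6 genes with windows, Hsd11b1, Per1 and Sgk1 held 1 match each in 1 window. Of all windows 25.7% held at least 1 match and 1.97% at least 3. The windows are shown because these neighbors had their lowest value in the same library, with the elements in capitals, from 250 bases before to 30 bases after the start on the plus strand. They lie at chr8:94178839-94179118 (Mt1) and chr8:94172368-94172647 (Mt2).
Mt1: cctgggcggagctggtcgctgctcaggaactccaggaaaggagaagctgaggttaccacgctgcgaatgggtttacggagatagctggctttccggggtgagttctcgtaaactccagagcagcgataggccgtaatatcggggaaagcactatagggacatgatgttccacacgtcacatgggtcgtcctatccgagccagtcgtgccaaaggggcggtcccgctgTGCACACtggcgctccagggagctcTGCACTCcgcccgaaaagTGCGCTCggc
Mt2: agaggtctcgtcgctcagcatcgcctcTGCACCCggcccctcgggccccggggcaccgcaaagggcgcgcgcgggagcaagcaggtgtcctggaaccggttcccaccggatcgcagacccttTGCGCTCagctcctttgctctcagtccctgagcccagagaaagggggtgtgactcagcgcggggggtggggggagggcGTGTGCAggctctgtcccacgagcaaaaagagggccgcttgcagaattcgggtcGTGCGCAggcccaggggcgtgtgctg

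Per gene length Mt1 exceeded Mt2 by 28.9 to 41.7 times across the 6 libraries. The length that the table gives for Mt1, 1246 bases, is the whole span of the gene with its introns. That for Mt2, 588 bases, is shorter than its span, so the ratio rests on unlike lengths. A length for Mt1 without introns would make the ratio larger. The transcripts of Mt1 shared 0% of their 31-base words with any other gene and those of Mt2 shared 2.65%. Mt2 overlaps the antisense Gm45774, which has 6.28% as many counts. How reads shared by the 2 genes were counted is not known, and reads dropped for both would not show in that share. The level of Mt2, and with it the ratio to Mt1, is therefore uncertain. Of 9 other tested metallothionein and zinc-handling genes 0 were raised or lowered with edgeR, DESeq2 or limma-voom, 3 had an unadjusted p under 0.05, and the median was 0.02. Mtf1, which encodes the zinc-sensing factor that binds metal response elements, stood at 0.09 ± 0.13 and the brain-type metallothionein Mt3 at -0.61 ± 0.29 (edgeR adjusted p = 0.336). The zinc importer genes Slc39a14 and Slc39a8 stood at 0.31 ± 0.12 and -0.36 ± 0.17 (adjusted p = 0.2157 and 0.329). Slc39a14 was 0.15 without col1-ACLP replicate 1, and Slc39a8 was -0.23 without col1-ACLP replicate 3.

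Over the 6 libraries the 10 genes differed widely in level per gene length. Mt1 led at 508 ± 63.3 CPM per kilobase (mean ± SD, n = 6), above 99.6% of tested genes. Sgk1 followed at 37.1 ± 3.89, then Klf9 at 19 ± 1.99, Mt2 at 14.2 ± 2.76, Nr3c1 at 13.5 ± 1.73 and Hsd11b1 at 11.9 ± 1.41. Per1 at 6.31 ± 0.51, Fkbp5 at 5.16 ± 0.63, Tsc22d3 at 2.96 ± 0.40 and Zbtb16 at 0.614 ± 0.09 closed the order. Neighbors whose library values overlapped were Klf9 and Mt2, Mt2 and Nr3c1, and Nr3c1 and Hsd11b1, so these ranges do not settle the order within those pairs. Mt2 also overlapped Hsd11b1. Klf9 did not overlap Nr3c1 or Hsd11b1, its lowest value (16.7) lying above their highest (15.4 and 13.4). Taken library by library, Klf9 was above Mt2 in all 6. The other neighbors did not overlap, though the whole order also rests on the gene lengths that the table gives.

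**Figure D3:**
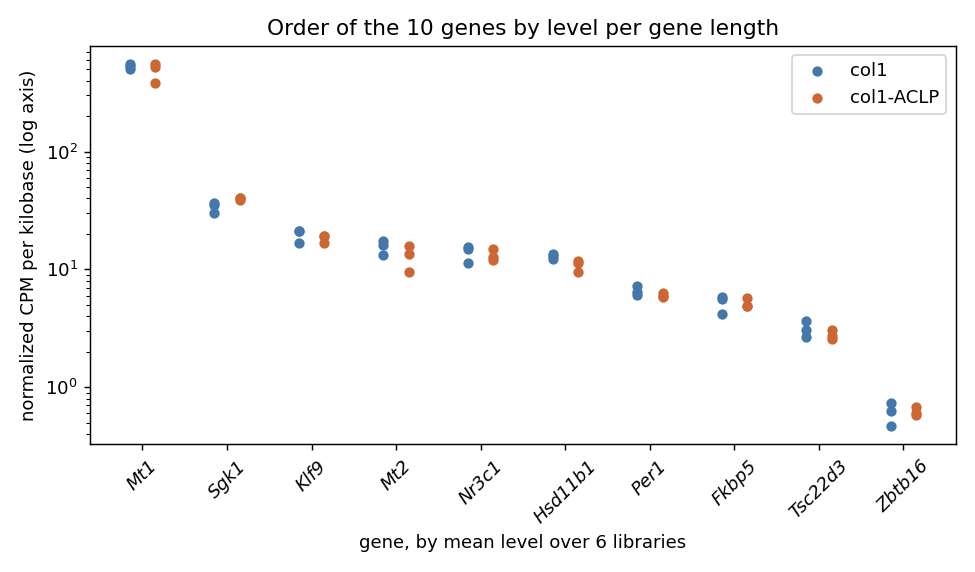
Normalized CPM per kilobase (log axis) of the 10 genes in order of their mean over 6 libraries, 1 point per library. Mt1 stands 13.7 times above Sgk1, and Zbtb16 stands 4.82 times below Tsc22d3.

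Other glucocorticoid-induced genes outside the set gave a mixed picture. Of 27 tested, Dusp1 was the 1 gene lowered and 0 were raised (4 called with DESeq2). At any fold, 6 passed the p threshold (4 lower and 2 higher on col1-ACLP), against 364 of all 17717 tested genes. An unadjusted p under 0.05 was found for 11 of the 27, against 2633 of the 17717. Of the 27, 15 had a fold change under 0 and 12 above, with a median of -0.06, and the groups did not overlap in 13, 9 lower and 4 higher on col1-ACLP, against 20.4% of all tested genes. Dusp1, a phosphatase that shuts off MAP kinases, fell from 241.6, 242.1 and 221.1 CPM to 134.6, 154.2 and 162.6 CPM (-0.64 ± 0.10, edgeR adjusted p = 0.00274). Its call was lost without col1-ACLP replicate 1, where the fold change was -0.57, and it overlaps Ergic1 on the opposite strand, whose count is 106% of its own, which leaves the value uncertain. Ddit4, which restrains mTOR under stress, had values of 169.6, 139.2 and 161.8 CPM on col1 and of 246.5, 213.8 and 228.2 CPM on col1-ACLP (0.55 ± 0.11, adjusted p = 0.01072), under the fold threshold. It passed both thresholds without col1 replicate 1 (0.61) or col1-ACLP replicate 2 (0.60) and missed the p threshold without col1 replicate 2 (adjusted p = 0.06852) or col1-ACLP replicate 3 (adjusted p = 0.06276).

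The other 4 that passed by p alone were named after their values were seen. The adipogenic factor Cebpd stood at -0.57 ± 0.11, the mRNA decay factor Zfp36 at -0.48 ± 0.11 and glutamine synthetase Glul at -0.41 ± 0.10. The secreted protein gene Crispld2 stood at 0.55 ± 0.13. Adjusted p of these 4 in edgeR ran from 0.01259 to 0.04298. These passes were lost in part when single libraries were left out. The adjusted p was above 0.05 for Cebpd without col1 replicate 3 or col1-ACLP replicate 1, and for Zfp36 and Crispld2 without any 1 of col1 replicates 2 and 3 and col1-ACLP replicates 1 and 3. For Glul it was above 0.05 in every such fit except that without col1 replicate 1. In the same libraries 8 immediate early genes, which the handling of cells can raise, summed to 2196 to 2275 CPM on col1 and to 1705 to 2015 CPM on col1-ACLP. Of the 8, 0 were called in edgeR, DESeq2 or limma-voom and 4 had an unadjusted p under 0.05. All 8 had a fold change under 0, with a median of -0.24. The groups did not overlap in 4, all lower on col1-ACLP, where 20.4% of all tested genes had such groups. Fos and Nr4a1 had the smallest p of these (-0.34 ± 0.10 and -0.34 ± 0.11). Their part in the lower values of Dusp1, Cebpd and Zfp36 was not tested.

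Of 16 inflammatory genes that glucocorticoids are known to repress, 0 were raised or lowered at both thresholds in edgeR, 3 had an unadjusted p under 0.05, and the median was -0.12. Their fold changes ran from -1.83 to 0.75, with 12 under 0 and 4 above. The groups did not overlap in 3, 2 lower and 1 higher on col1-ACLP, where 20.4% of all tested genes had such groups. The stromelysin gene Mmp3 had values of 565.9, 525.9 and 631.4 CPM on col1 and of 394.4, 377.8 and 385.6 CPM on col1-ACLP. Its fold change of -0.57 ± 0.10 passed by p (edgeR adjusted p = 0.004457) and lay just under the fold threshold, which it passed without col1 replicate 1 or 2 or col1-ACLP replicate 1 (-0.59 to -0.64). The prostaglandin synthase gene Ptgs2 was at 50.99, 114 and 96.08 CPM on col1 and at 149.1, 152 and 137.5 CPM on col1-ACLP. Its fold change of 0.75 ± 0.19 missed the p threshold in edgeR (adjusted p = 0.05664) and in DESeq2 (adjusted p = 0.1484) and passed it in limma-voom (adjusted p = 0.02162). It was 0.48 without col1 replicate 1, the lowest library, and passed in edgeR without col1 replicate 2 (0.98, adjusted p = 0.01443). The groups stood apart in both genes, in opposite directions.

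**Figure D4:**
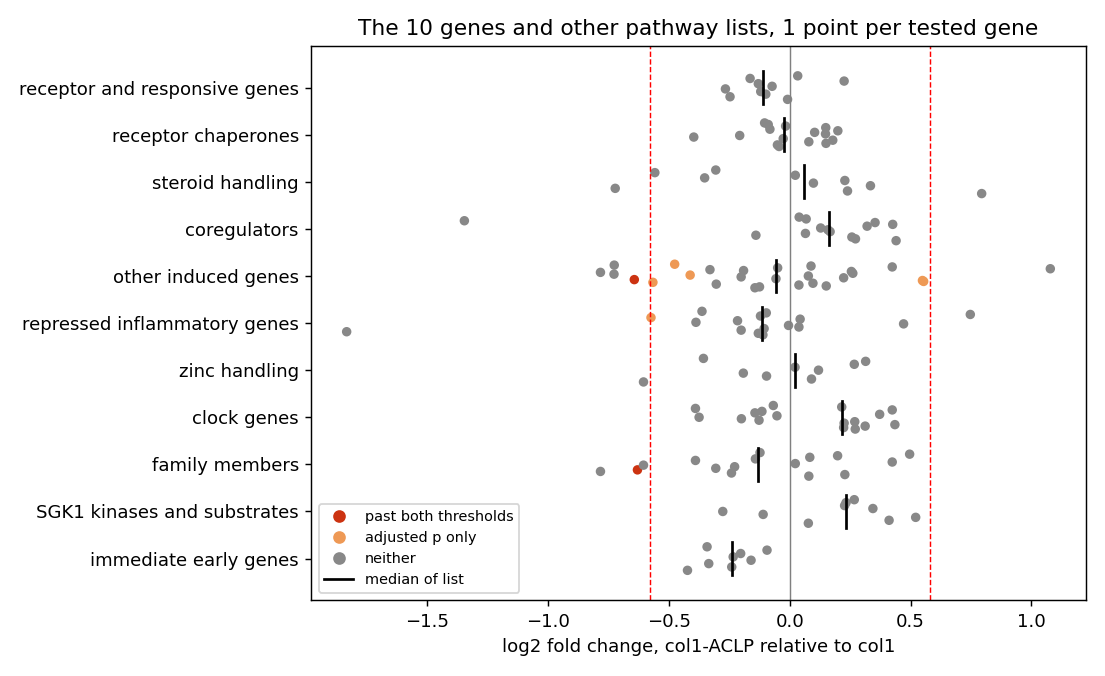
Log2 fold change (x axis, col1-ACLP relative to col1) of every tested gene in the set and in the other pathway lists, with the list median as a black bar and red dashed lines at -0.58 and 0.58. The 10 genes lie between -0.27 and 0.23, while the points past both thresholds in other lists are Dusp1 and Klf2.

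In GRCm39, as the table gives positions, Nr3c1 (ENSMUSG00000024431) spans chromosome 18 39543598-39652474, Hsd11b1 (ENSMUSG00000016194) chromosome 1 192903942-192946383, and Fkbp5 (ENSMUSG00000024222) chromosome 17 28618068-28736501. Tsc22d3 (ENSMUSG00000031431) spans chromosome X 139440277-139501408, Per1 (ENSMUSG00000020893) chromosome 11 68986043-69000786, and Zbtb16 (ENSMUSG00000066687) chromosome 9 48565597-48747522. Klf9 (ENSMUSG00000033863) spans chromosome 19 23118590-23145498, Sgk1 (ENSMUSG00000019970) chromosome 10 21758083-21875802, Mt1 (ENSMUSG00000031765) chromosome 8 94905710-94906955, and Mt2 (ENSMUSG00000031762) chromosome 8 94899292-94900196. All are protein-coding genes. Apart from Mt2, counted genes that overlap them had at most 2.98% as many counts, the figure for Lamb3 over Hsd11b1.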

How the data were processed

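RNA from 6 libraries was enriched for polyA and sequenced, and clean reads were mapped with HISAT2. The methods name GRCm39 and the submitters' processing notes mm10, while the positions in the table match GRCm39. The deposited table holds raw counts per gene made by the authors. For the counting program, strand and shared reads, the sources used here give no setting. Counts were tested with edgeR 4.0.16 (quasi-likelihood test, TMM, filterByExpr with a minimum count of 10 and total of 15, R 4.3.3), two-sided, with Benjamini-Hochberg adjustment over 17717 genes. Alternatives were DESeq2 1.42.0, limma-voom 3.58.1, other scalings, no filter, a replicate block and leaving out each library. The steps were tested on simulated data.

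The 10 genes and the lists were chosen with earlier results of these data known. Beside the 10, the genes named were those past both thresholds in a list or the smallest p until 2 were named. Others with a defining role in a list were named after their values were seen, and 1 gene that the rule names is not reported here. Groups came from the labels, which do not state whether replicates came from separate animals or cultures. The p-values then measure only how these libraries vary, which may be technical. Motifs were searched in RefSeq windows of GRCm38.p6, a different build from the table.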

Additional observations from a re-analysis of the deposited data

How the results depend on the processing

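None of the 10 genes passed both thresholds in any of 12 other fits, and the lowest adjusted p was 0.2082 (Sgk1, DESeq2). Of 120 fold changes 110 kept their direction and 10 reversed, all near 0 or resting on 1 library. Fkbp5 was 0.005 with limma-voom and 0.001 with the replicate block, and -0.153 to 0.075 when single libraries were left out. Zbtb16 was -0.003 with library totals alone and -0.139 to 0.182 without single libraries, and Mt1 -0.223 to 0.022. Over all genes 245 calls became 389 with no filter on low counts and 148 to 289 without single libraries, with 157 and 163 without col1 replicate 1 and 3 and 151 and 148 without col1-ACLP replicate 1 and 3. The cause was not tested. DESeq2 called 350, limma-voom 242, and edgeR with no minimum fold 364. Calls among other induced genes were 1 in edgeR, 4 with DESeq2, 3 with library totals alone or no filter, and 0 to 4 without single libraries. The repressed genes had 0 calls and 1 with limma-voom, library totals alone, no filter or the replicate block, and 0 to 2 without single libraries. The steroid list had 0, 1 with DESeq2, limma-voom or without col1 replicate 1 (Abcb1a, 1.028, adjusted p = 0.01916), and 2 with no filter. The relatives had 1, 2 with DESeq2 or no filter, and 0 without col1-ACLP replicate 1.

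Replicates with the same number did not deviate together (correlations -0.043, -0.049 and -0.017), so the numbers were not taken as pairs. With a replicate block 194 genes and 0 of the 10 were called. The block also took Glul, Crispld2, Upk3b and Cma1 past an adjusted p of 0.05 (0.1085, 0.05553, 0.07674 and 0.05881) and brought Ptgs2 under it (0.03586). Shallow counts limit Zbtb16 and Mt2 most.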
